A study of Mus musculus with 42 samples.

Results

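Immunoglobulin transcripts were measured in libraries made from sorted T cells. The genes described are the constant region genes Ighm, Igha, Ighg1, Ighg2b, Ighg2c, Ighg3, Igkc, Iglc1 and Iglc2 and the J chain gene Jchain. They were taken as the rows of the deposited count table whose Ensembl identifier carries one of these symbols, which gave 10 of 46603 genes. The study sorted CD4+ T cells by a Foxp3-GFP reporter into regulatory T cells (Treg) and conventional T cells (Tconv) and sequenced their RNA in bulk, in 42 libraries of 16 groups from 3 experiments (A, B and C). Cells came from 4 sites: ileum, synovium of the ankle, and the draining lymph nodes of each, which are the mesenteric node for the gut and the popliteal and inguinal ones (the joint nodes below) for the ankle. Mice were either TNFdARE, which carry a Tnf allele without the AU-rich element that limits the life of its messenger RNA, or wild-type (WT) littermates. Mice of both genotypes also carried the DEREG transgene, in which Foxp3 control sequences drive a GFP fusion protein, so the sort follows that transgene. The labels give no age and no number of animals per library, and p-values then cover only variation among samples, some of which may be technical.

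Each group held 3 libraries, 1 per experiment, apart from 5 groups. TNFdARE Treg and TNFdARE Tconv of the mesenteric node had 2 each (B and C), TNFdARE Tconv and WT Treg of the synovium had 2 each (A and B), and WT Tconv of the synovium had 1 (A), without a replicate. Total counts lay between 18261064 and 30301202 per library, so 3 counts stand for 0.099 to 0.164 CPM. CPM here are counts scaled to the usual common library size after TMM normalisation, and values after ± are standard deviations between libraries for CPM and standard errors of the fit for log2 fold changes. Intervals and floors cover counting error only. Both TNFdARE Tconv B and WT Tconv C of the joint nodes stood apart, with 29599 and 31454 genes detected against 13341 to 21065 in the other 40 libraries, and results that rest on them are given without them too. Foxp3, which checks the sort, lay at 549.6 to 1663 CPM in the Treg libraries. In Tconv it lay at 6.39 to 30.6 CPM in WT, at 118.8 to 201.1 CPM in TNFdARE ileum and at 22.1 to 39.7 CPM in TNFdARE nodes. The 2 TNFdARE libraries labelled synovial Tconv held 604.5 and 600.0 CPM, above the lowest Treg library (WT synovial B) and below the others (at least 968 CPM), so the Tconv label of that group goes against its Foxp3 level.

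In a B cell, an antibody heavy chain is made from a V, a D and a J segment joined to a constant region, which is mu (Ighm) until class switching brings gamma, alpha or epsilon in its place. Light chains are made likewise with a kappa (Igkc) or a lambda (Iglc) constant region. Plasma cells of the gut lamina propria secrete IgA as dimers held together by the J chain, while IgM and IgG prevail in blood. Constant region genes can also be transcribed without a joined V segment, from promoters upstream of the constant exons, and such germline transcripts of the mu region have been described in T cells. Spliced antibody mRNA therefore brings V segment reads with it, and a germline transcript does not. In bulk samples, fewer cells of a type and less RNA per cell cannot be told apart.

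In GRCm38 the heavy chain constant genes lie on the minus strand of chromosome 12: Ighm at 113418558 to 113422730, Ighg3 at 113356224 to 113361232, Ighg1 at 113325240 to 113330523, Ighg2b at 113302965 to 113307933, Ighg2c at 113285325 to 113288932 and Igha at 113254830 to 113260236. Igkc lies on the plus strand of chromosome 6 (70726435 to 70726966), Iglc1 (19061618 to 19062071) and Iglc2 (19198396 to 19200351) on the minus strand of chromosome 16, and Jchain on the minus strand of chromosome 5 (88519809 to 88527891). The first bases of the first constant exon, where a V-D-J or V-J exon is spliced on, are shown for the 3 most abundant constant genes, from the GENCODE M21 transcripts. Their positions are chr12:113422671-113422730 for Ighm, chr12:113260177-113260236 for Igha and chr6:70726435-70726494 for Igkc.
Ighm: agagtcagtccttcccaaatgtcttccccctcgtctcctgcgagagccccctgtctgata
Igha: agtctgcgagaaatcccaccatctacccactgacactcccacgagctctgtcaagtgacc
Igkc: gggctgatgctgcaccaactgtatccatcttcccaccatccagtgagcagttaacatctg
These 3 exon starts are shown because the contrast between sites turns on these genes.

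The gamma genes and the lambda genes are near copies of each other, which bears on how reads can be told apart. Ighg2b (chr12:113307874-113307933) and Ighg2c (chr12:113288873-113288932) differ at 5 of the first 60 bases of the first constant exon, in capitals.
Ighg2b: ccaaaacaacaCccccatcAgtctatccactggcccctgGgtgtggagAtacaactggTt
Ighg2c: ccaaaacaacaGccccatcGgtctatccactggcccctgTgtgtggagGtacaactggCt
Iglc1 (chr16:19062015-19062071) and Iglc2 (chr16:19198796-19198852) differ at 11 of 57 bases. Iglc3 (chr16:19065625-19065681), which is not one of the 10 genes, differs from Iglc2 at 4. Capitals mark the 12 positions at which any of the 3 differ.
Iglc1: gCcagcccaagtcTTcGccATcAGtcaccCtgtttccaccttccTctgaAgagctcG
Iglc2: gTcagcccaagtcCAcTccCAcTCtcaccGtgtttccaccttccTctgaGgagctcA
Iglc3: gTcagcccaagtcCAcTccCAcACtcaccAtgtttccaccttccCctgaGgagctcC
No window of 100 bases, the read length, was identical between a transcript of the 10 genes and one of another immunoglobulin gene. How the authors assigned reads that match several copies is not given in the sources used here, so the values of Ighg2b, Ighg2c, Iglc1 and Iglc2 are uncertain to that extent. Igkc also overlaps the long noncoding gene Gm30211 on its own strand, which held 605 counts in all libraries together, against 187914 of Igkc.

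Ighm was the gene with the most counts (706629 over the 42 libraries) and the only one of the 10 with a count in every library. Igkc had counts in 41 libraries, Jchain in 31, Igha in 30 and Ighg3 in 27. Ighg2b and Iglc1 had counts in 21, Ighg1 and Iglc2 in 20, and Ighg2c in 10 (51 counts in all). Per kilobase of exon, mean levels in TNFdARE ileal Treg were 3236 CPM for Igkc, 611.5 for Igha, 570.4 for Ighm and 202.5 for Jchain. In TNFdARE mesenteric Treg, Ighm stood at 1051 CPM per kilobase, the highest group mean of that gene.

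**Figure D1:**
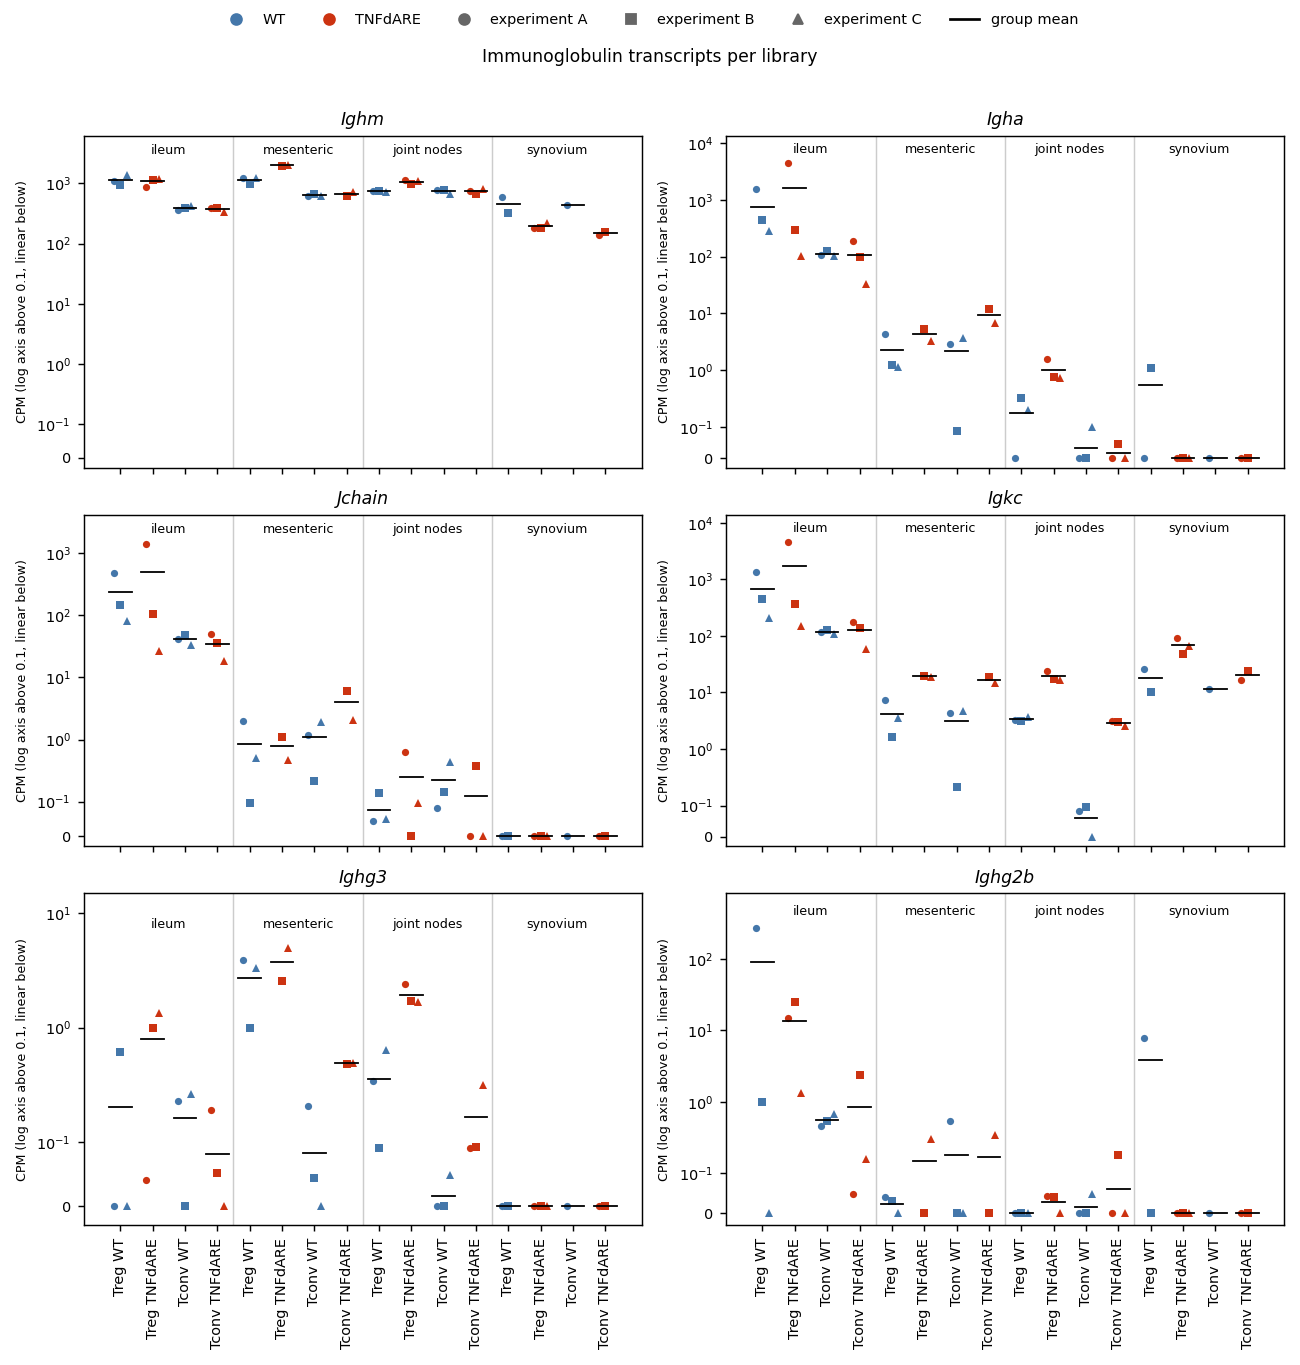
CPM of 6 immunoglobulin genes in each of 42 libraries, on an axis that is logarithmic above 0.1 CPM and linear below, by group of site, cell type and genotype (blue, WT; red, TNFdARE; symbol shape, experiment; bar, group mean). Ighm lies between 140.5 and 2042 CPM in every library, Igha, Jchain and Igkc are highest in the ileum, and Jchain is at 0 in all synovial libraries.

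Ighm, the mu heavy chain of IgM, was present at high levels at all 4 sites. With genotypes averaged it was higher in Treg than in Tconv at 3 of them, though in the joint nodes the WT libraries overlapped. In the mesenteric node, TNFdARE Treg held 1924 and 2042 CPM (B and C) and WT Treg held 1235, 964 and 1204 CPM (A, B and C). The corresponding Tconv held 625.5 and 716 CPM in TNFdARE and 626, 654 and 614 CPM in WT. All Treg libraries of that node lay above all its Tconv libraries, and both TNFdARE Treg libraries lay above the 3 WT ones.

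In the ileum, Ighm in Treg was 881, 1151 and 1195 CPM in TNFdARE and 1079, 947 and 1373 CPM in WT. Ileal Tconv held 382.5, 390 and 341 CPM in TNFdARE and 361, 392 and 417.5 CPM in WT. Treg and Tconv did not overlap, and the genotypes did. In the joint nodes, Treg held 1138, 991.5 and 1080 CPM in TNFdARE and 759, 745 and 721 CPM in WT, with no overlap. Joint node Tconv, at 756, 677 and 801 CPM in TNFdARE and 772, 784 and 674.5 CPM in WT, overlapped between genotypes. The synovium was lowest, with 184, 181 and 218 CPM in TNFdARE Treg, 593 and 327 CPM in WT Treg, 140.5 and 154 CPM in the TNFdARE libraries labelled Tconv and 435 CPM in the WT Tconv library.

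Ordered by group mean, TNFdARE mesenteric Treg came first (1983 ± 84.0 CPM, n = 2) and did not overlap the next group. WT mesenteric Treg (1134 ± 148.5 CPM, n = 3), WT ileal Treg (1133 ± 218), TNFdARE ileal Treg (1076 ± 170) and TNFdARE joint node Treg (1070 ± 73.7) each overlapped their neighbour in that order. The joint node Tconv of both genotypes and WT joint node Treg (742 ± 18.97 CPM) followed and overlapped each other. The TNFdARE libraries labelled synovial Tconv closed the order at 147 ± 9.38 CPM (n = 2).

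Against Tconv, Ighm rose 2.94-fold in ileal Treg (log2 fold change 1.56 ± 0.11, edgeR adjusted p = 5.4e-06) and 2.33-fold in mesenteric Treg (1.22 ± 0.08, adjusted p = 2.7e-07), genotypes averaged. In the joint nodes the rise was 1.19-fold (0.25 ± 0.05, adjusted p = 0.00091). In WT alone, joint node Treg (759, 745 and 721 CPM) overlapped Tconv (772, 784 and 674.5 CPM). A single fit of all 42 libraries ended the joint node call (adjusted p = 0.11). Between genotypes, Ighm was higher in TNFdARE than in WT in mesenteric Treg (1.77-fold, 0.83 ± 0.11, adjusted p = 0.0012, 2 libraries against 3) and in joint node Treg (1.44-fold, 0.53 ± 0.07, adjusted p = 0.00049, 3 against 3). The second call was lost in the single fit of all libraries (adjusted p = 0.1). In Tconv the log2 differences were 0.00 ± 0.07 in the joint nodes and 0.08 ± 0.11 in the mesenteric node, and in the ileum -0.09 ± 0.15 in Treg and -0.07 ± 0.15 in Tconv. These 4 did not pass.

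Whether the genotype difference in Ighm differed between Treg and Tconv was tested by an interaction term. In the joint nodes it was 0.53 ± 0.10 on the log2 scale (adjusted p = 0.036), with the larger difference in Treg. Omitting 1 library at a time ended this call for 9 of 12 libraries (adjusted p = 0.057 to 0.13), the sample number of the labels as a covariate gave 0.15, and the fit of all libraries gave 1.0. Without both Tconv libraries that stood apart it was 0.53 ± 0.11 (0.057). In the mesenteric node the term was 0.75 ± 0.16 and did not pass (adjusted p = 0.11).

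B cell markers went different ways beside Ighm. Ms4a1, which encodes the B cell surface protein CD20, reached at most 1.37 CPM in the nodes (WT joint node Tconv C, with 0.506 CPM in TNFdARE Tconv B and 0 in the other 4 joint node Tconv libraries) and at most 0.2912 CPM in mesenteric Treg, which held the most Ighm. Cd79a, the signalling chain of the B cell receptor, lay between 0 and 15.6 CPM over the 42 libraries with a median of 3.21, and in the nodes between 2.14 and 6.54 CPM. In mesenteric Treg it was 3.29 and 3.502 CPM in TNFdARE against 3.55, 5.54 and 4.85 CPM in WT, and the genotypes did not differ past the test (-0.43 ± 0.32, adjusted p = 0.52). Its partner Cd79b ran between 13.5 and 33.1 CPM in node Treg and between 0.147 and 3.15 CPM in node Tconv. The 12 genes of the B cell list summed to 28.2 to 54.3 CPM in node Treg and 6.09 to 24.4 CPM in node Tconv. Both were thus higher in node Treg, also in the WT joint nodes. There Cd79b was 13.5 to 15.05 CPM in Treg and 0.147 to 1.10 CPM in Tconv. Ighm overlapped there, at 721 to 759 CPM in Treg and 674.5 to 784 CPM in Tconv. Ighd, the delta heavy chain that naive B cells make beside mu, was higher in mesenteric Treg than in Tconv (3.17 ± 0.32, adjusted p = 9e-06) and in joint node Treg (2.33 ± 0.25, adjusted p = 3e-06). In joint node Treg it was 20.2, 15.98 and 18.8 CPM in TNFdARE and 4.93, 7.98 and 7.23 CPM in WT (1.45 ± 0.33, adjusted p = 0.018).

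V segment reads were few beside the mu reads of the nodes. Counts summed over 185 heavy chain V segments came to between 0.00599 and 0.764 per 100 Ighm counts in the node libraries. In the ileum the same ratio ran from 2.02 to 118 per 100, but V counts are not told apart by isotype. Per 100 Igha counts, the ileal V counts came to 20.6 to 31.1. How many of them were joined to Ighm cannot be read from the ratio. In the 2 libraries with the most Ighm, TNFdARE mesenteric Treg B and C, the ratio to Ighm was 0.067 and 0.0868 per 100. Counts of the 4 heavy chain J segments gave 6.59 to 28.3 CPM in node Treg and 0.122 to 1.62 CPM in node Tconv. The part of B cells in the Ighm of the nodes was not tested.

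**Figure D2:**
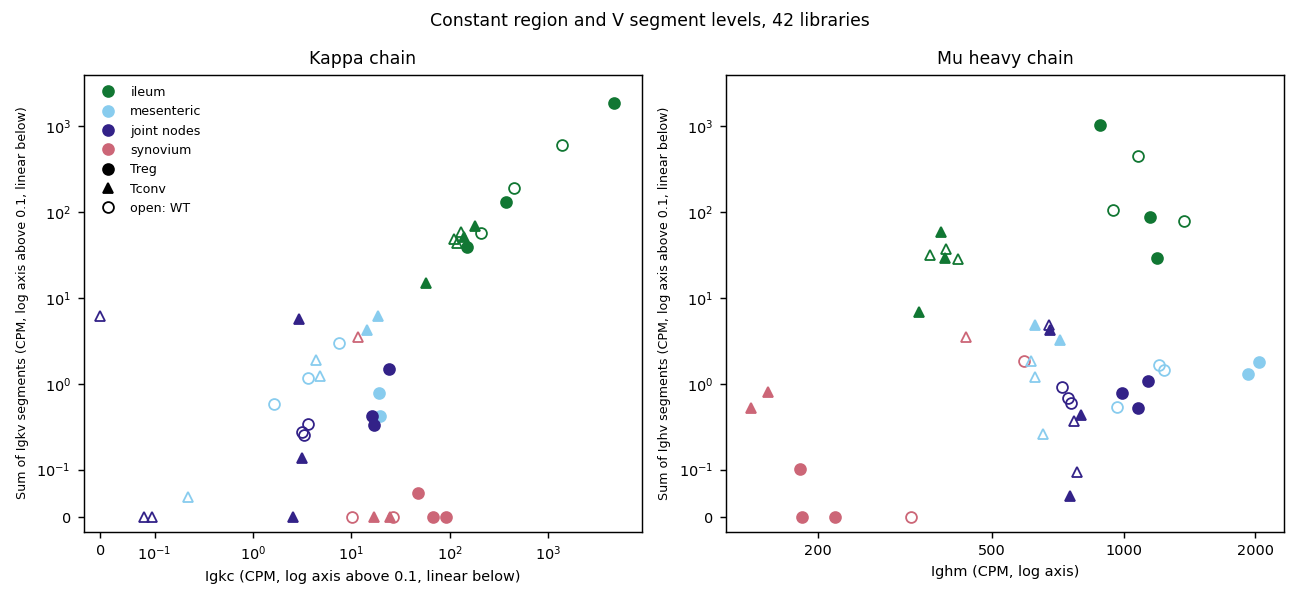
Sum of kappa V segments against Igkc (left) and sum of heavy chain V segments against Ighm (right), in CPM, 1 point per library (42), by site (colour), cell type (circle, Treg; triangle, Tconv) and genotype (filled, TNFdARE; open, WT). Axes are logarithmic, with a linear stretch below 0.1 CPM on all but the Ighm axis. In the ileum V segments are high (6.87 to 1039 CPM for the heavy chain), and in node Treg libraries with up to 2042 CPM of Ighm they sum to at most 1.77 CPM. Heavy chain V segments are not told apart by isotype.

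Igha, the alpha heavy chain of IgA, was a gene of the ileal libraries. Ileal Treg held 4497, 294 and 103 CPM in TNFdARE (A, B and C) and 1553, 448.5 and 286 CPM in WT. Ileal Tconv held 190, 99.2 and 33.3 CPM in TNFdARE and 106, 124 and 102 CPM in WT. In both genotypes of Treg experiment A was highest and C lowest, and the TNFdARE C library of Treg lay within the range of the Tconv libraries.

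In the mesenteric node, Igha was 5.32 and 3.24 CPM in TNFdARE Treg, 4.35, 1.21 and 1.11 CPM in WT Treg, 11.9 and 6.84 CPM in TNFdARE Tconv and 2.82, 0.0869 and 3.70 CPM in WT Tconv. Both TNFdARE Tconv libraries lay above the WT ones, and Treg of the genotypes overlapped. In the joint nodes, TNFdARE Treg held 37, 18 and 15 counts (1.57, 0.743 and 0.71 CPM), WT Treg 0, 7 and 4 counts, and the 6 Tconv libraries 3 counts together, all of them in the 2 libraries that stood apart. In the synovium Igha was 0 in 7 of 8 libraries, which allows up to 0.12 to 0.152 CPM, and WT Treg B held 23 counts (1.07 CPM).

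Jchain, whose product joins IgA and IgM units, followed Igha in the ileum. It stood at 1398, 104 and 26.6 CPM in TNFdARE Treg, at 489, 144 and 81.4 CPM in WT Treg, at 49.7, 36.3 and 18.2 CPM in TNFdARE Tconv and at 42.03, 47.97 and 33.7 CPM in WT Tconv. Per 100 Igha counts, the 12 ileal libraries had 25.8 to 54.6 Jchain counts. In the mesenteric node Jchain reached 5.96 CPM in TNFdARE Tconv B and at most 2.07 CPM in the other libraries, in the joint nodes it was at most 0.638 CPM, and in the synovium it was 0 in all 8 libraries.

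The site comparison asks how gut and node differ within 1 sorted cell type. In Treg, Igha was 361-fold higher in the ileum than in the mesenteric node (8.50 ± 1.34, adjusted p = 0.0014) and Jchain 430-fold (8.75 ± 1.45, adjusted p = 0.0019). Without TNFdARE Treg A of the ileum these were 6.99 and 7.28 on the log2 scale (adjusted p = 0.00028 and 0.00065), and without both experiment A libraries 6.47 and 6.74 (0.00026 and 0.0011). Both calls held, at a smaller fold. In Tconv, Igha was also higher (4.58 ± 0.53, adjusted p = 1.5e-05) as was Jchain, 17.9-fold (4.17 ± 0.42, adjusted p = 4.2e-06). Ighm went the other way, at -0.44 ± 0.13 in Treg (adjusted p = 0.031) and -0.76 ± 0.07 in Tconv (adjusted p = 1.4e-06). The Treg call for Ighm was lost on omission of any of 6 libraries out of 11 (adjusted p = 0.053 to 0.12), with the sample number of the labels as a covariate (0.12), and without the experiment A ileal Treg (0.09). Of the 9 genes tested, 6 were higher and 1 lower in ileal Treg, against 29.2% of all genes called. In Tconv 5 were higher and 1 lower, against 61% of all genes called. The median log2 fold changes of the 9 were 6.91 and 4.09, beside 0.03 and 0.08 over all genes tested. Ighg2b, Iglc1 and Iglc2 did not pass the low count filter in the fit of the mesenteric node, so they entered here through the ileal libraries. Their direction was thus set largely by the filter, and the counts and medians of the 9 include them.

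Between the nodes, Igha was 7.34-fold higher in mesenteric than in joint node Treg (2.88 ± 0.52, adjusted p = 0.0024), a call lost in the fit of all libraries (adjusted p = 0.3). In Tconv it also passed (adjusted p = 0.00055), with 3 counts in all on the joint node side, and without the 2 joint node Tconv libraries that stood apart (0.0053). Ighm rose 1.68-fold in mesenteric over joint node Treg (0.75 ± 0.07, adjusted p = 9.4e-06) and was lower in mesenteric Tconv (-0.22 ± 0.05, adjusted p = 0.025). The Tconv difference was lost without any 1 of 7 of the 11 libraries (adjusted p = 0.054 to 0.14) and in the fit of all libraries (0.5). Igkc and Jchain were higher in mesenteric Tconv (4.02 ± 0.61, adjusted p = 0.0022, and 3.61 ± 0.82, adjusted p = 0.027). The Jchain call was lost without any 1 of 6 libraries (adjusted p = 0.057 to 0.16) and in the fit of all libraries (0.26), and without both libraries that stood apart it was 6.40 ± 0.96 (0.0042). Without those 2, Ighm in Tconv was -0.26 ± 0.05 (0.022) and Igkc 3.81 ± 0.69 (0.01). In Treg 3 of 6 tested genes were higher (Ighm, Igha and Ighg3), against 12.8% of all genes called, and in Tconv 3 were higher and 1 lower, against 3.74%. Jchain did not pass the low count filter in the fit of the joint nodes. It entered here through the mesenteric libraries, so its direction was set largely by the filter. With the replicate block Jchain passed in Treg too (3.04 ± 0.74, adjusted p = 0.011, against 0.075 without).

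Against Tconv, ileal Treg had more Igha (3.39 ± 0.87, adjusted p = 0.024), Jchain (9.42-fold, 3.24 ± 0.84, adjusted p = 0.025), Igkc (9.05-fold, 3.18 ± 0.80, adjusted p = 0.021) and Ighg2b (51.6-fold, 5.69 ± 1.65, adjusted p = 0.04), beside Ighm. These were 5 of 9 genes tested, all higher, against 14.8% of all genes called. Apart from Ighm the calls were close to the threshold: omitting 1 of 12 libraries ended the call of Igha and of Igkc in 6 cases, of Jchain in 8 and of Ighg2b in 9 (adjusted p = 0.05 to 0.3). Most of these were Tconv libraries, and the estimates ran from 1.83 to 3.74 for Igha, 1.78 to 3.45 for Igkc, 1.72 to 3.52 for Jchain and 1.89 to 7.16 for Ighg2b, with the lowest of each on omission of an experiment A Treg library. Without the experiment A Treg libraries, Igha was 1.30 ± 0.43 (adjusted p = 0.087), Jchain 1.17 ± 0.38 (0.083), Ighg2b 1.86 (0.37) and Igkc 1.25 ± 0.35 (0.049). With the sample number of the labels (1 to 32 against 33 to 44) as a covariate, Igha was 1.40 (0.32), Igkc 1.42 (0.27), Jchain 1.30 (0.34) and Ighg2b 3.68 (0.39). Of the ileal and mesenteric libraries, those numbered above 32 were all ileal Treg (TNFdARE A, WT A and WT C). This covariate is therefore partly tied to cell type and site, and its effect cannot be fully separated from theirs. With the experiment as a replicate block, Ighg2b did not pass (4.73, adjusted p = 0.12).

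Marker genes of other cell types were also high in single ileal Treg libraries. Epcam, an adhesion molecule of gut epithelium, was 157.5, 101 and 22.03 CPM in TNFdARE ileal Treg and 117, 66.9 and 41.5 CPM in WT ileal Treg (A, B and C), the same order over experiments as Igha, and 3.51 to 16.9 CPM in ileal Tconv. The 5 genes of the epithelium list summed to 24.2 to 554.6 CPM in TNFdARE and 41.5 to 368 CPM in WT ileal Treg, and to 5.73 to 58.3 CPM in ileal Tconv. Of the 5, 1 passed between ileal Treg and Tconv (Epcam, 3.29 ± 0.55, adjusted p = 0.0023), and none was at 0 in all libraries of an ileal group. Epcam lay at 14.8 to 25.7 CPM in node Treg and at 2.37 to 6.05 CPM in node Tconv. Its excess in Treg was thus not particular to the ileum. The 6 stromal and endothelial genes summed to 104 to 2247 CPM in TNFdARE and 149 to 1038 CPM in WT ileal Treg and to 177 to 499 CPM in ileal Tconv, and the 6 myeloid genes to 3.46 to 140 CPM and 6.84 to 30.4 CPM. No gene of these 2 lists passed. The part of other cells in the ileal immunoglobulin levels was not tested.

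Between genotypes, none of the 9 tested genes passed in ileal Treg (0.729% of all genes called) or in ileal Tconv (1.31% called), nor did an interaction term (0.0188% called). Igha differed by 1.11 ± 1.14 in Treg (adjusted p = 0.75) and by -0.04 ± 1.13 in Tconv (adjusted p = 1.0) on the log2 scale. The group means of Igha were 1632 ± 2483 CPM in TNFdARE Treg and 763 ± 689.5 CPM in WT Treg (n = 3 each), with standard deviations near or above the means.

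The share of each isotype among heavy chain counts shows the same contrast within libraries. These are shares of counts of Ighm, Igha and the 4 gamma genes, not corrected for length. Igha made up 82.9% (Wilson 95% interval 82.7 to 83.1%) of the heavy chain counts of TNFdARE ileal Treg A, 19.7% (19.2 to 20.1%) of B and 7.93% (7.60 to 8.28%) of C. In WT ileal Treg it made up 53.4% (53.0 to 53.8%), 32.1% (31.6 to 32.7%) and 17.2% (16.9 to 17.6%). Ileal Tconv lay between 8.91 and 33.2%. In the mesenteric node the share was 0.0133 to 1.86%, in the joint nodes 0 to 0.138%, and in the synovium 0 except 0.326% in WT Treg B. Ighm made up at least 97.8% of heavy chain counts in each node library.

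Among switched counts alone, that is Igha and the gamma genes, Igha made up 84.9 to 99.9% in the ileum. In mesenteric Tconv it made up 66.7 to 96.9% (3 to 322 switched counts per library) and in mesenteric Treg 23.9 to 61.8% (73 to 218 counts). In TNFdARE joint node Treg it made up 38.95, 26.5 and 30% of 95, 68 and 50 switched counts. Gamma counts were thus a larger part of the small switched total in mesenteric Treg and TNFdARE joint node Treg than in the ileal libraries. No gamma gene dominated node libraries as a whole, where the 4 together made up at most 0.35% of heavy chain counts.

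**Figure D3:**
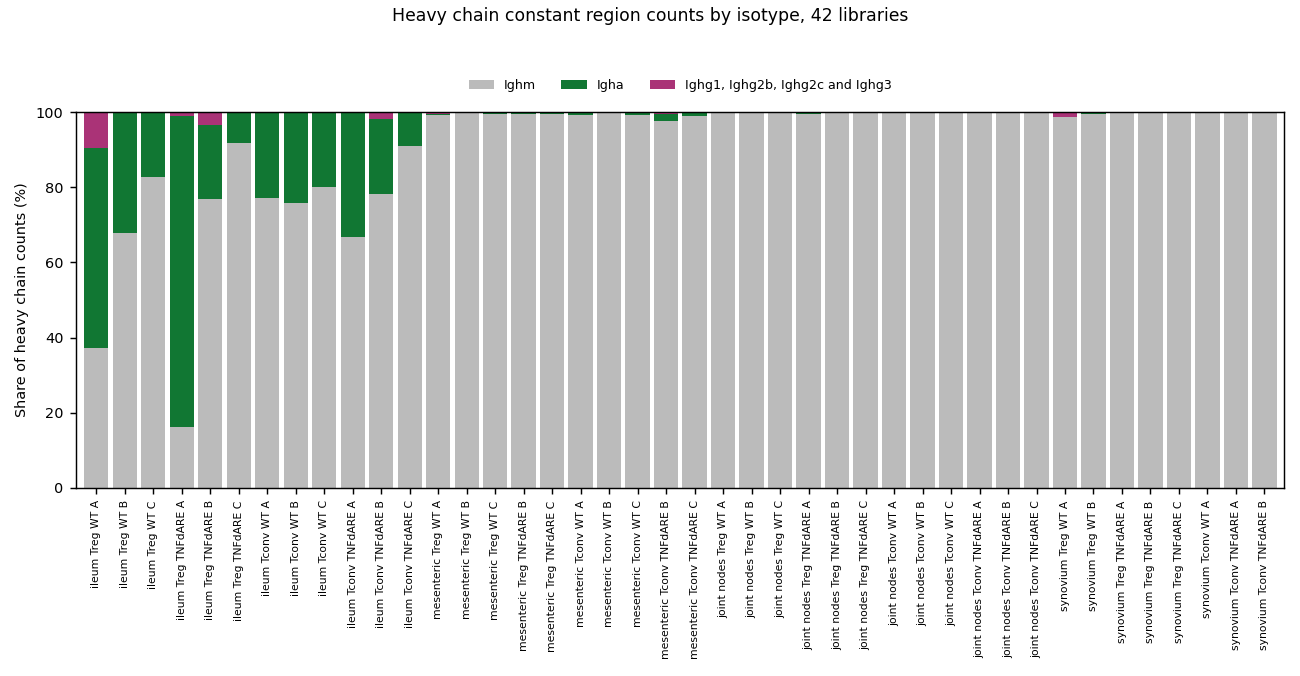
Share of heavy chain constant region counts from Ighm, Igha and the 4 gamma genes in each of 42 libraries, in percent. Igha takes 7.93 to 82.9% in the 12 ileal libraries, and Ighm at least 97.8% in every node library.

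The gamma genes encode the heavy chains of IgG subclasses and were low outside single libraries. Ighg2b was 275 CPM in WT ileal Treg A, 1.01 in B and 0 in C, and 14.9, 24.98 and 1.35 CPM in TNFdARE ileal Treg. WT synovial Treg A held 157 counts (7.82 CPM), and node libraries at most 0.539 CPM. Ighg1 was 34.2, 26.4 and 0.325 CPM in TNFdARE ileal Treg against 0, 0 and 2.04 CPM in WT, and 7.10 CPM in TNFdARE ileal Tconv B. A single library held most of the Ighg2b. Its call in ileal over mesenteric Treg was lost without TNFdARE mesenteric Treg B (edgeR adjusted p = 0.11) or C (0.1). With the sample number as a covariate it was lost too (0.11). Without the experiment A ileal Treg libraries it was 5.24 ± 1.56 (0.043).

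Ighg3, the heavy chain of IgG3, was the gamma gene of the node Treg. It was 2.54 and 4.93 CPM in TNFdARE and 3.87, 0.987 and 3.29 CPM in WT mesenteric Treg, and at most 0.492 CPM in mesenteric Tconv. In the joint nodes it was 2.38, 1.69 and 1.66 CPM in TNFdARE Treg, 0.34, 0.0912 and 0.635 CPM in WT Treg and at most 0.316 CPM in Tconv. Against Tconv it was 15.5-fold higher in mesenteric Treg (3.95 ± 0.59, adjusted p = 0.00021) and 13.7-fold higher in joint node Treg (3.77 ± 0.68, adjusted p = 0.00037). The TNFdARE and WT joint node Treg libraries did not overlap, but the difference did not pass (2.41 ± 0.75, adjusted p = 0.077). It passed without the 2 Tconv libraries that stood apart (2.42 ± 0.66, adjusted p = 0.047) and with DESeq2 (2.46 ± 0.84, adjusted p = 0.034). Ighg3 was 3.84-fold higher in mesenteric than in joint node Treg (1.94 ± 0.42, adjusted p = 0.0075), a call lost in the fit of all libraries (adjusted p = 0.76). In the ileum Ighg3 was at most 1.35 CPM, and Treg did not differ past the test from mesenteric Treg (-2.97 ± 1.16, adjusted p = 0.078). That difference passed with DESeq2 (-2.95 ± 1.09, adjusted p = 0.023) and in the fit of all libraries (-2.95 ± 1.03, adjusted p = 0.034).

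Ighg1 in mesenteric Treg was 0.749 and 0.822 CPM in TNFdARE and 0.12, 0.0956 and 0 CPM in WT (3.30 ± 0.98, adjusted p = 0.076). Ighg2c was found in 10 libraries at up to 0.702 CPM and passed the filter on low counts in no comparison. All 4 gamma genes were at 0 in the 5 TNFdARE synovial libraries.

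Igkc, the kappa constant region, separated the genotypes in the joint nodes. TNFdARE Treg held 24.2, 17.1 and 16.3 CPM and WT Treg 3.27, 3.14 and 3.61 CPM. TNFdARE Tconv held 3.17, 2.95 and 2.53 CPM (70, 64 and 64 counts) and WT Tconv 2, 2 and 0 counts. The genotypes did not overlap in either cell type. The rise was 5.73-fold in Treg (2.52 ± 0.24, adjusted p = 3.8e-05) and 43.7-fold in Tconv (5.45 ± 0.42, adjusted p = 2.7e-06), the latter against 4 WT counts in all. Both calls held on omission of each of the 12 libraries (2.31 to 2.63 in Treg and 4.97 to 5.85 in Tconv) and without both Tconv libraries that stood apart (2.52, and 4.93 in Tconv). Both were lost in the single fit of all 42 libraries (adjusted p = 0.46 and 0.34), in which 86 genes passed in Treg against 838 in the site's own fit.

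In these libraries Foxp3 moved with Igkc in Tconv, at 36.2, 27.7 and 39.7 CPM in TNFdARE and 6.50, 6.51 and 6.87 CPM in WT. Per 100 Foxp3 counts, Igkc was 8.76, 10.7 and 6.36 in TNFdARE Tconv against 1.25, 1.46 and 0 in WT Tconv, and 2.02, 1.57 and 1.45 in TNFdARE Treg against 0.26, 0.289 and 0.341 in WT Treg. The part of Foxp3-positive cells in the Tconv difference was not tested beyond these ratios. The interaction term of Igkc was -2.93 ± 0.54 (adjusted p = 0.032), with the larger log2 difference in Tconv, and it was lost without any 1 of 9 of 12 libraries (adjusted p = 0.056 to 0.09), with the sample number as a covariate (0.073), without both Tconv libraries that stood apart (0.075) and in the fit of all libraries (1.0).

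Igkc in mesenteric Treg was 19.3 and 19.1 CPM in TNFdARE against 7.498, 1.62 and 3.59 CPM in WT, and in mesenteric Tconv 18.7 and 14.5 CPM against 4.40, 0.217 and 4.75 CPM. The genotypes did not overlap in either, but neither difference passed (2.20 ± 0.73, adjusted p = 0.11, and 2.39 ± 0.74, adjusted p = 0.15). With the experiment as a replicate block both passed (2.93 ± 0.62, adjusted p = 0.018, and 3.13 ± 0.63, adjusted p = 0.022). In the synovium Igkc was 91.3, 47.7 and 66.6 CPM in TNFdARE Treg and 26.3 and 10.2 CPM in WT Treg, 16.8 and 24.4 CPM in the TNFdARE libraries labelled Tconv and 11.6 CPM in the WT Tconv library. The Treg groups did not overlap, and the difference did not pass (1.97 ± 0.55, adjusted p = 0.31). In the ileum Igkc was 4645, 369 and 151 CPM in TNFdARE Treg, 1374, 444 and 207 CPM in WT Treg and 57.9 to 179 CPM in Tconv. It was 120-fold higher in ileal than in mesenteric Treg (6.91 ± 1.17, adjusted p = 0.0022, or 5.04 ± 0.52 without the experiment A ileal Treg, adjusted p = 0.00058) and higher in Tconv too (4.09 ± 0.43, adjusted p = 6.9e-06). Against Tconv, Igkc was 18.3-fold higher in joint node Treg (4.19 ± 0.24, adjusted p = 3.2e-09), and in the mesenteric node the difference was 0.34 ± 0.52 (adjusted p = 0.65).

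Kappa V segments did not accompany Igkc everywhere. Counts summed over 160 Igkv segments came to 25.7 to 45.3 per 100 Igkc counts in the 12 ileal libraries. WT mesenteric Treg had 39.9, 35.3 and 32.4 per 100, and TNFdARE mesenteric Treg had 2.15 and 4.08 per 100. Mesenteric Tconv had 33.1 and 28.9 per 100 in TNFdARE and 42.5, 20 and 26.2 per 100 in WT. Joint node Treg had 6.16, 1.93 and 2.61 per 100 in TNFdARE and 7.79, 8.70 and 9.46 per 100 in WT. Joint node Tconv had 4.29, 193.8 and 0 per 100 in TNFdARE (A, B and C), where B is a library that stood apart. In WT Tconv A and B, with 2 Igkc counts each, it was 0, and C had no Igkc count. In the 7 synovial libraries other than the WT Tconv library, which had 30.2 per 100, the ratio was 0 to 0.105. So the Igkc of joint node Treg of both genotypes, of TNFdARE mesenteric Treg and of most synovial libraries came with few V segment counts. That of the ileum and of mesenteric Tconv came with more in both genotypes, as did that of WT mesenteric Treg. These ratios are descriptions without a test.

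The lambda chains were rare. Igkc made up 94.0 to 99.5% of light chain counts (Igkc, Iglc1 and Iglc2) in the ileum. Iglc1 was 224, 17.8 and 0.325 CPM in TNFdARE ileal Treg, 80.5, 1.01 and 0 CPM in WT ileal Treg, and 0.381 to 4.89 CPM in ileal Tconv. Iglc2 was 13.03, 0.787 and 0.541 CPM in TNFdARE and 7.25, 1.27 and 4.73 CPM in WT ileal Treg, and 0.419 to 1.52 CPM in ileal Tconv. Experiment A was again highest in each Treg group. Iglc1 was higher in ileal than in mesenteric libraries in Treg (adjusted p = 0.034, against 1 count in 5 mesenteric libraries) and in Tconv (21.7-fold, 4.44 ± 0.86, adjusted p = 0.00085). Iglc2 rose 91.4-fold in ileal over mesenteric Treg (6.51 ± 1.48, adjusted p = 0.01, or 0.054 without TNFdARE mesenteric Treg B) and passed in Tconv (adjusted p = 0.00014, with no count in mesenteric Tconv). The Iglc1 calls were lost in Treg on omission of any of 5 libraries (adjusted p = 0.051 to 0.16) and with the sample number as a covariate (0.12), and in Tconv in the fit of all libraries (0.055). Outside the ileum the largest lambda value was 4.04 CPM of Iglc1 (86 counts) in the WT synovial Tconv library.

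Counting the 10 genes over comparisons, 4 of 4 tested were higher in joint node Treg than in Tconv (Ighm, Igha, Ighg3 and Igkc), against 43.2% of all genes called. For Igha that call had an adjusted p of 0.0041, with 3 counts on the Tconv side, all in the 2 libraries that stood apart (0.0026 without them), and was lost without TNFdARE Treg A (0.057) and in the fit of all libraries (0.31). In the mesenteric node 2 of 6 were higher in Treg (Ighm and Ighg3), against 38.6% called, so that share is at the background. In the synovium, where the TNFdARE libraries labelled Tconv hold Foxp3 at 604.5 and 600.0 CPM, 0 of 5 passed between Treg and Tconv (1.1% called), and Ighm differed by 0.20 ± 0.22 and Igkc by 1.148 ± 0.45.

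Between genotypes, 1 of 6 passed in mesenteric Treg (5.68% of all genes called), 0 of 6 in mesenteric Tconv (2.36%), 2 of 4 in joint node Treg (5.7%), 1 of 4 in joint node Tconv (2.79%) and 0 of 5 in synovial Treg (0.156%). All 4 calls were higher in TNFdARE. With the experiment as a replicate block, 2 passed in mesenteric Treg (Igkc beside Ighm) and 1 in mesenteric Tconv (Igkc). Of the interaction terms, 0 of 6 passed in the mesenteric node (0.209% called) and 2 of 4 in the joint nodes (0.449%). A median over the tested genes says little with so few of them: it was 0.89 in mesenteric Treg, 2.47 in joint node Treg and 1.53 in joint node Tconv, beside 0.01, -0.02 and 0.01 over all genes.

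**Figure D4:**
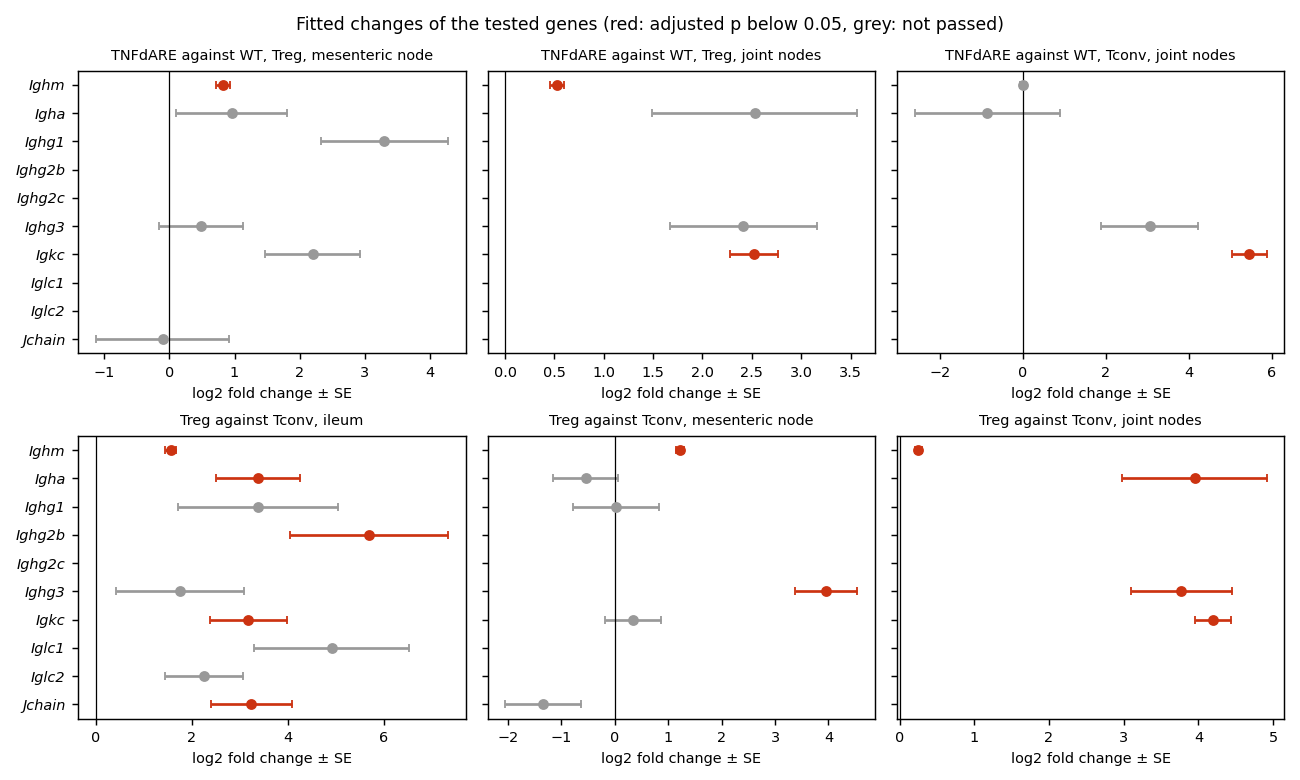
Fitted log2 fold changes ± SE of the tested genes in 6 comparisons, with genes at an adjusted p below 0.05 in red and the others in grey; a missing point was not tested, and horizontal scales differ between panels. Igkc is higher in TNFdARE in both cell types of the joint nodes (2.52 and 5.45), and the Igha point of the joint nodes in the lower row rests on 3 Tconv counts.

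Markers of B cells and plasma cells were read from lists of 12 and 14 genes. In the genotype comparison of Treg, the B cell list had 1 of 6 tested genes higher in the mesenteric node (Blk, a Src family kinase of B cells, 3.21 ± 0.53, adjusted p = 0.0075) and 1 of 7 in the joint nodes (Bank1, a scaffold protein of B cell signalling, 0.91 ± 0.22, adjusted p = 0.023), beside 5.68% and 5.7% of all genes called. The summed B cell list was 42.8 and 54.3 CPM in TNFdARE against 32.1 to 40.7 CPM in WT mesenteric Treg, and 40.8 to 41.8 against 28.2 to 29.98 CPM in joint node Treg. Pax5 and Fcrla were at 0 in both TNFdARE mesenteric Treg libraries. In Tconv of the joint nodes Bank1 also rose (1.70 ± 0.22, adjusted p = 0.00036), 1 of 7 beside 2.79% of all genes, and the sum was 15.1 to 19.1 CPM in TNFdARE against 6.09 to 14.03 CPM in WT. The part of B cells in the Igkc and Ighm differences was not tested.

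Against Tconv, Cd79b was the B cell gene that rose in Treg at 3 sites: 2.91 ± 0.29 in the ileum (adjusted p = 5.9e-05), 3.79 ± 0.41 in the mesenteric node (1.8e-05) and 4.44 ± 0.25 in the joint nodes (2.4e-09). The list had 1 gene higher and 2 lower of 9 in the ileum, 2 higher of 6 in the mesenteric node and 3 higher of 7 in the joint nodes, beside 14.8%, 38.6% and 43.2% of all genes called, so the shares of both nodes are near the background. Cd79a rose in the joint nodes (0.61 ± 0.22, adjusted p = 0.033) and missed the threshold in the ileum (2.20 ± 0.69, adjusted p = 0.055). Between sites Cd79a was lower in ileal than in mesenteric Tconv (-1.54 ± 0.33, adjusted p = 0.0016), opposite to Igha, and in Treg it did not pass (0.37 ± 0.68, adjusted p = 0.71). None of the germinal centre genes Rgs13, Mef2b and Gcsam passed the filter on low counts in the ileum or the nodes.

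Xbp1, the transcription factor behind the secretory state of plasma cells and active in other cells too, lay between 86.9 and 508.5 CPM. It was 1.91-fold higher in ileal than in mesenteric Treg (0.93 ± 0.12, adjusted p = 0.00043) and 2.58-fold in Tconv (1.37 ± 0.07, adjusted p = 1.8e-08), and 1.37-fold higher in ileal Treg than in ileal Tconv (0.46 ± 0.12, adjusted p = 0.024). In no genotype comparison did it pass. The plasma cell list had 5 of 13 genes higher and 1 lower in ileal over mesenteric Treg and 10 higher and 1 lower in Tconv, beside 29.2% and 61% of all genes called. Among the Tconv calls were Sdc1, which encodes the plasma cell antigen CD138 (5.55 in Tconv), and Irf4 (2.80), which activated T cells express as well. Sdc1 also lay at 7.06 to 62.4 CPM in the synovial libraries, where Jchain was at 0. Mzb1, a chaperone of plasma cells, was 19.3, 1.87 and 0.487 CPM in TNFdARE and 1.51, 3.35 and 1.16 CPM in WT ileal Treg, and at most 0.263 CPM in the nodes. Of the 14 genes, Tnfrsf17, the receptor BCMA, was at 0 in all TNFdARE ileal libraries and in WT ileal Treg A and C and Tconv A. WT ileal Treg B held 12 counts (0.609 CPM), and WT ileal Tconv B and C held 4 and 1. Pigr, the epithelial receptor that carries IgA across the gut wall, was higher in ileal Treg (9.54 ± 2.08, adjusted p = 0.0085).

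Some leading V segments were shared between ileal libraries and others were not. Ighv3-6 led the heavy chain V counts in TNFdARE Treg A (12.3%) and in WT Treg B (19.7%) and C (60.3%). Ighv1-81 led in WT Treg A (26.4%), Ighv1-85 in TNFdARE Treg C (43.6%) and Ighv7-1 in TNFdARE Tconv A (43.3%). Among kappa segments, Igkv1-110 led in WT Treg A (25.1%) and Igkv6-23 in 4 of 6 ileal Tconv libraries (9.16 to 26.2%). Heavy chain V counts per 100 Igha counts were alike across ileal libraries, at 20.6 to 31.1.

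The genes whose log2 CPM ran most like these over the 42 libraries, out of 11849 searched, are given as a description, since libraries share sites and cell types. For Igha, Pearson's r was 0.969 with Jchain, 0.911 with Stat4, 0.906 with Zfp958, 0.876 with Ube2b and 0.872 with Hsp90b1. For Ighm it was 0.895 with Fam169b, 0.891 with Mgst2, 0.886 with Trpc4ap, 0.864 with Trbv12-1 and 0.854 with Cd27. For Igkc it was 0.907 with Plscr1, 0.906 with Abcb1a, 0.902 with Cysltr2, 0.898 with Pmaip1 and 0.886 with Cxcl10. Igha ran with Igkc (0.749) and Igkc with Xbp1 (0.852), while Ighm and Igkc did not run together (-0.095).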

How the data were processed

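RNA of sorted T cells was isolated with a column kit for small samples, copied into full-length cDNA with a SMART-Seq v4 protocol from 1 of 2 stated input amounts, and sequenced as single reads, per the labels' protocols. The labels do not tie an amount to a library. The authors deposited raw read counts per Ensembl gene, not normalised. They also deposited FPKM values, made by the authors, for 18964 of the genes, and these served only as a check. The submitters' processing notes list Bowtie2 2.3.3.1, cutadapt 1.15 and the GRCm38 build, and the counting program, annotation and strand setting are not given in the sources used here. Symbols, positions and exon sequences came from GENCODE M21, which named 46005 of the 46603 genes. Of the RefSeq promoter windows given, 1 matched (Jchain), and it was not used.

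A separate fit per site used the edgeR 4.0.16 quasi-likelihood F test (R 4.3.3), 1 mean per group, TMM factors and the filterByExpr filter, and Benjamini-Hochberg adjustment over all genes tested. A gene passed at an adjusted p below 0.05. Comparisons of sites used the libraries of 1 cell type at both sites, genotypes averaged. Synovial Tconv of WT had 1 library, so it entered only the comparison of cell types. Isotype shares, V segment sums and correlations (log2 CPM, prior count 2) are descriptions. The script was tested on simulated counts.

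All 10 genes entered every comparison in which they passed the low count filter, and some of their estimates are not reported here. From each list up to 4 genes with the smallest adjusted p could be named, with Cd79a and Xbp1 throughout, Foxp3 as a check of the sort, the 5 genes most like Igha, Ighm and Igkc, and the leading V segments. Other genes given as levels (Ms4a1, Cd79b, Mzb1, Epcam, Ighd and Tnfrsf17) were chosen after their values were seen. Some list genes are not reported here. The genes and lists were chosen with earlier results of these data known.

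Experiment letters mark the 3 experiments. Deviations from group means correlated between TNFdARE and WT libraries of 1 letter at -0.529 to 0.458 over 18 pairs (median 0.082, 8 above 0.1), so the letter was left out of the main test and entered as a replicate block in an alternative. Other alternatives were RLE factors, DESeq2 1.42.0, no filter beyond 1 count, 1 fit of all 42 libraries, the sample number of the labels (1 to 32 against 33 to 44) as a covariate, FPKM in place of CPM, and omission of each library. Omission of the experiment A ileal Treg libraries, and of the 2 joint node Tconv libraries with the most genes detected, was added after seeing the data.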

Additional observations from a re-analysis of the deposited data

Results flagged for a closer look

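In the joint nodes the genotype difference of Ighm and of Igkc differed between Treg and Tconv by a test of that difference, the interaction term of edgeR. For Ighm the term was 0.53 on the log2 scale (adjusted p = 0.036): TNFdARE Treg lay at 1070 ± 73.7 CPM against 742 ± 18.97 CPM in WT, and TNFdARE Tconv at 745 ± 62.7 CPM against 743.5 ± 60.1 CPM in WT (n = 3 each). For Igkc the term was -2.93 (adjusted p = 0.032): Treg lay at 19.2 ± 4.32 CPM in TNFdARE against 3.34 ± 0.242 CPM in WT, and Tconv at 2.88 ± 0.327 against 0.0588 ± 0.0514 CPM. The 2 genes went opposite ways, with the larger log2 difference in Treg for Ighm and in Tconv for Igkc. Igkc of WT Tconv rests on 4 counts. Each term was lost on omission of any of 9 of the 12 libraries, with the sample number of the labels as a covariate (adjusted p = 0.15 for Ighm and 0.073 for Igkc), without the joint node Tconv libraries TNFdARE B and WT C (0.057 and 0.075) and in 1 fit of all libraries (1.0). Groups of at most 3 libraries were too small for a test of single outlying libraries.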

How the results depend on the processing

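Of 37 calls of the 10 genes, all 37 held with RLE factors, with DESeq2 and without the filter on low counts, 36 with the replicate block, 25 in 1 fit of all 42 libraries and 15 of the 24 that could be fitted with the sample number as a covariate. Over 652 values under all alternatives none changed direction. In single omissions 343 of 418 values still passed, and 24 of the 37 calls passed in every one. Numbers of genes called that moved more than 1.5-fold, or to or from 0, were as follows. The replicate block, which took the experiment letter as a pairing, gave 2 in place of 1 between genotypes in mesenteric Treg and 1 in place of 0 in Tconv. The sample number as a covariate gave 1 in place of 5 for ileal Treg against Tconv, 0 in place of 2 for the joint node interaction and 4 in place of 7 for ileal against mesenteric Treg. Without the low count filter, 3 passed in place of 1 between genotypes in mesenteric Treg, 4 in place of 0 in Tconv, 1 in place of 0 for the mesenteric interaction (Ighm) and 5 in place of 3 for mesenteric against joint node Treg. DESeq2 gave 1 in place of 0 for the mesenteric interaction and 2 in place of 0 between genotypes in synovial Treg (Ighm -1.27 ± 0.31 and Igkc 1.88 ± 0.55). Smaller moves under DESeq2 added Iglc1 and Iglc2 for ileal Treg against Tconv, and Ighg1 and Ighg3 for ileal against mesenteric Treg. DESeq2 also added Jchain for mesenteric against joint node Treg and Ighg3 between genotypes in joint node Treg. The fit of all libraries gave 0 in place of 2 and 0 in place of 1 between genotypes in joint node Treg and Tconv, 2 in place of 0 in synovial Treg, 2 in place of 4 for joint node Treg against Tconv, 0 in place of 2 for the joint node interaction, and 1 in place of 3 and 2 in place of 4 for the mesenteric against the joint nodes in Treg and Tconv. Leaving out both experiment A ileal Treg libraries gave 2 in place of 5 for ileal Treg against Tconv (Ighm and Igkc). Leaving out the joint node Tconv libraries TNFdARE B and WT C gave 0 in place of 2 for the joint node interaction. The cause of these shifts was not tested.

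On omission of 1 library the counts were 1 to 6 for ileal Treg against Tconv, 2 to 3 and 3 to 4 for the mesenteric and joint nodes, 0 to 2 for the joint node interaction, 1 to 2 between genotypes in mesenteric Treg, 0 to 1 in synovial Treg, 3 to 9 for ileal against mesenteric Treg, 6 to 7 in Tconv, and 3 to 4 and 2 to 4 for the mesenteric against the joint nodes in Treg and Tconv. Ighm of TNFdARE mesenteric Treg stood 1.65 above the mean of all libraries on the log2(CPM + 1) scale, and 1.74 in the FPKM. The Igha share of heavy chain counts, as a mean of the shares of the 6 ileal Treg libraries, was 35.5%. By library it ran from 7.93 to 82.9%. By FPKM without Ighg2c the share was 29.8%. That share with all 6 genes was not run in FPKM, since Ighg2c has no row in the table used. At these depths a gene under 3 counts in a library could not be measured, which covers most gamma and lambda values of the nodes and the synovium.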

Other observations

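The 2 joint node Tconv libraries with the most genes detected (31454 and 29599) also held V segment counts spread over many segments. WT Tconv C held 99 heavy chain V counts over 48 segments and 124 kappa V counts over 63 segments, with 0 counts of Igkc. TNFdARE Tconv B held 93 heavy chain V counts over 52 segments and 124 kappa V counts over 50, with 64 counts of Igkc. The other 4 joint node Tconv libraries held 1 to 11 heavy chain V counts. Ighe, the heavy chain of IgE, had 2 counts in 1 library, and Iglc4 had none in the 42 libraries. WT synovial Treg held 109 and 115 CPM summed over the B cell list with Ms4a1 and Pax5 at 0, above the 6.09 to 54.3 CPM of the node libraries.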
